A study of Mus musculus with 7 samples.

Results

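The 10 genes described here encode the G1 cyclins (Ccnd1, Ccnd2, Ccnd3, Ccne1, Ccne2), the kinases CDK4 and CDK6 (Cdk4, Cdk6) and the pocket proteins (Rb1, Rbl1, Rbl2). They were taken by symbol from the 23955 gene names of the count table, and all 10 passed the filter on low counts that left 13768 genes. RNA came from cultures of mouse esophageal epithelial cells of mixed strain background, grown on plastic in KSFM, a keratinocyte medium. The groups were 2 wild-type (WT) lines without a treatment label, 3 lines labelled p53R172H mutant and treated with 4NQO, and 2 lines labelled p53 -/- null and treated with 4NQO. 4NQO, 4-nitroquinoline 1-oxide, is a DNA-damaging carcinogen used to induce squamous tumors of the mouth and esophagus. No WT line carried the 4NQO label, so p53 status and carcinogen cannot be told apart in a comparison with WT. The labels do not say whether lines of a group came from separate animals, how long 4NQO was given or whether a line is 1 clone, so a p-value here measures no more than the spread among the lines.

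Passage from G1 to S phase is set by cyclin-kinase complexes that act in turn. D-type cyclins bind CDK4 or CDK6, whose complexes phosphorylate the pocket proteins pRb (Rb1), p107 (Rbl1) and p130 (Rbl2), and this frees E2F transcription factors. E-type cyclins, themselves products of E2F target genes, then activate CDK2 and drive DNA replication. In squamous epithelium these genes act in the basal layer, and p53 acts on the same step through its target Cdkn1a (p21), an inhibitor of cyclin-kinase complexes.

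The D-type cyclins are related closely enough that their reads could in principle be confused, so the coding starts are shown, with capitals for the codons of the motif that contacts the pocket proteins. The sequences are the first 60 coding bases in GENCODE M21 (GRCm38 build), 5′ to 3′.
Ccnd1: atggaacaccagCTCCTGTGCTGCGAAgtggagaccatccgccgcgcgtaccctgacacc
Ccnd2: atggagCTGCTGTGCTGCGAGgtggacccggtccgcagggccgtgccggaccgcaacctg
Ccnd3: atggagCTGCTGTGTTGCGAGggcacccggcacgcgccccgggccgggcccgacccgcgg
All 3 carry the motif within the first 27 coding bases. The coding sequences of Ccnd1 and Ccnd2 were 72.5% identical over 843 aligned bases, and the longest run of letters they shared exactly was 20 bases.

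The E-type cyclins include the only gene of the 10 that edgeR called. They are shown over 60 coding bases from the start of the conserved hydrophobic patch of the cyclin box, bases 424 to 483 of Ccne1 and 421 to 480 of Ccne2, with capitals for the 41 bases that are identical in both (GENCODE M21, GRCm38).
Ccne1: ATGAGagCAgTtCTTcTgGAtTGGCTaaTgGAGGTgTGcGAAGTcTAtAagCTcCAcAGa
Ccne2: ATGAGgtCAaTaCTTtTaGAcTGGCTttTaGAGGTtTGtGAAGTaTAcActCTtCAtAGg
Over whole coding sequences Ccne1 and Ccne2 were 63.0% identical, with a longest shared run of 18 bases. For Cdk4 and Cdk6 that run was 20 bases, and among the pocket proteins it was at most 14 bases.

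Library totals ranged from 12751118 to 47000225 counts. Trp53, the gene that encodes p53, was at 192.7 to 212 CPM (counts scaled to library size with TMM factors) in WT and 172 to 254 CPM in mutant lines. It was at 8.73 and 4.71 CPM in null 1 and null 3, which fits their label. Mutant lines have a missense allele, so their Trp53 level does not check their label. The epithelial markers Krt5, Krt14, Trp63, Epcam, Cdh1 and Krt8 were present in every library, with a summed level of 27529 to 37359 CPM in WT, 6888 to 9807 CPM in mutant and 5895 to 9929 CPM in null lines. Krt5 and Krt14 made up most of this sum, and the other markers did not all follow it. Means in WT, mutant and null lines were 346, 345 and 236 CPM for Trp63 and 420, 100 and 370 CPM for Epcam. They were 811, 403 and 752 CPM for Cdh1 and 374, 129 and 279 CPM for Krt8. Of 8 fibroblast markers 6 passed the filter, and the sum of all 8 was 5.61 to 8.20 CPM in WT, 9.73 to 567 CPM in mutant and 8.03 to 419.6 CPM in null lines. The 3 libraries with raised fibroblast markers were mutant 1, mutant 3 and null 3, while Lum stayed at or below 0.0203 CPM in all. Smooth muscle markers, mostly Acta2, summed to 152 to 279.8, 167 to 812 and 29.3 to 411 CPM in WT, mutant and null lines. Endothelial markers summed to at most 2.05 CPM, and of 5 immune markers Cd68 alone passed, with Cd3e at 0 counts in every library. Xist, which marks an inactive X chromosome, was at 675 and 1653 CPM in the WT lines and at most 0.964 CPM elsewhere, so WT also differed from the other lines in this respect.

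**Figure D1:**
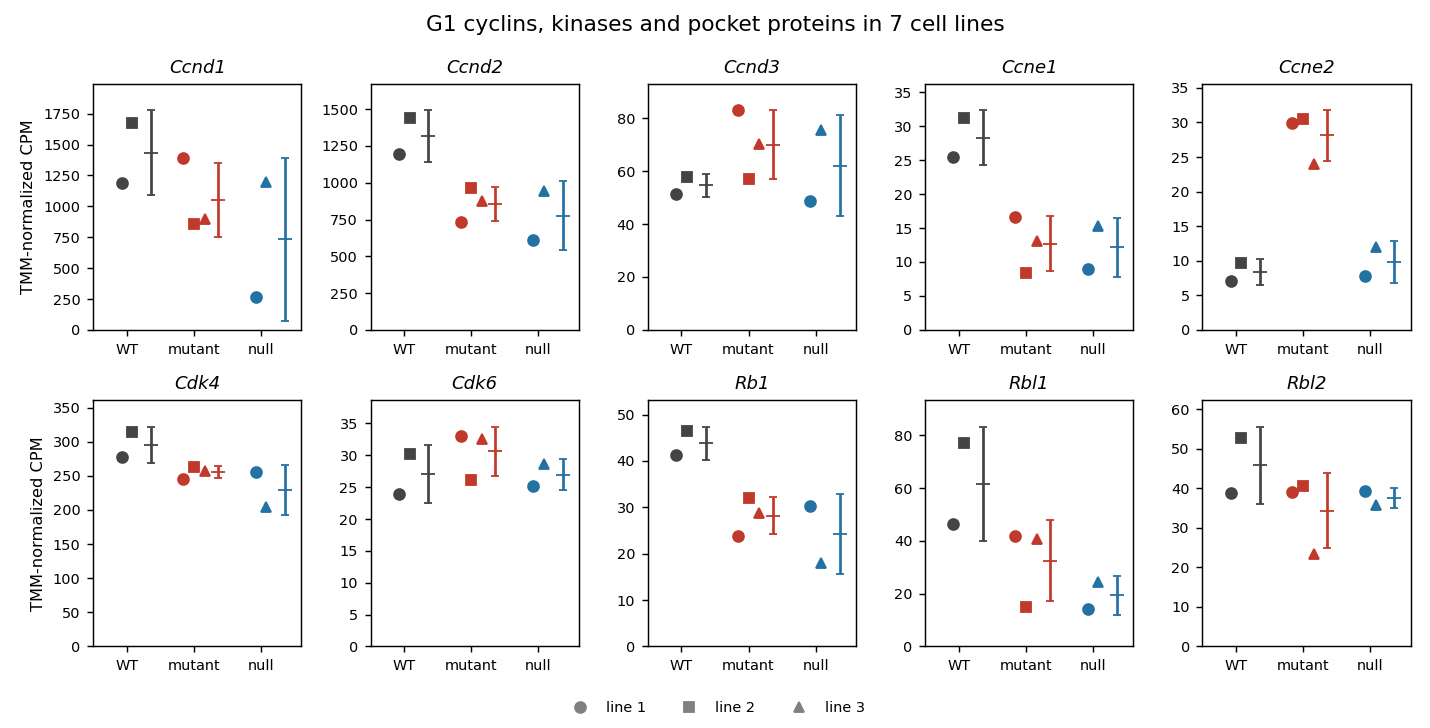
Level of each gene in the 7 libraries, in TMM-normalized CPM on linear axes that start at 0. Symbols are single lines (circle 1, square 2, triangle 3), and the bar beside each group is its mean ± SD; Ccne2 alone has all 3 mutant lines above every other line.

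Ccne2, which encodes cyclin E2, was 3.35-fold higher in mutant than in WT lines and was the only 1 of the 10 genes that passed the test. It stood at 7.08 and 9.74 CPM in WT 1 and WT 2. In mutant 1, 2 and 3 it stood at 29.9, 30.6 and 23.9 CPM, and in null 1 and null 3 at 7.73 and 12.0 CPM. All mutant lines lay above all WT and null lines, and the null lines overlapped the WT lines. The mean level of mutant lines was 28.1 ± 3.66 CPM (SD, n = 3). That of WT was 8.41 ± 1.89 CPM (SD, n = 2) and that of null lines 9.88 ± 3.04 CPM (SD, n = 2). The log2 fold change of mutant against WT was 1.75 (SE 0.313, edgeR quasi-likelihood adjusted p = 0.0324). Across all genes 3.3% were called higher and 4.13% lower in this comparison. The adjusted p ran from 2.25e-05 to 0.194 over 13 alternative settings, 8 of which called the gene. The call was lost without WT 1, WT 2, mutant 2 or mutant 3 (edgeR adjusted p = 0.154, 0.194, 0.0854 and 0.0866), while the log2 fold change stayed between 1.54 and 1.99.

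Against null lines, Ccne2 was higher in mutant lines by 1.51 on the log2 scale (SE 0.308), with an unadjusted p of 0.0020 and an edgeR adjusted p of 0.258. This comparison, in which both groups carry the 4NQO label, is also the test of whether mutant and null lines differ in their distance from WT, and edgeR did not call it. edgeR called 0% of genes here, while 6.35% were higher and 7.63% lower at an unadjusted p under 0.05. Even Trp53, higher in mutant than in null lines by 5.06 on the log2 scale, was not called (edgeR adjusted p = 0.0555). A missing call in this comparison therefore does not show that a difference is absent. DESeq2 called Ccne2 higher (adjusted p = 0.0017), alone among the 10 genes, where it called 4.69% of genes, 1.65% higher and 3.04% lower. Over the 13 alternatives the adjusted p ran from 0.0017 to 0.778. Null against WT differed by 0.24 (SE 0.324, edgeR adjusted p = 0.709). The fibroblast marker sum was 567, 9.73 and 376 CPM in mutant 1, 2 and 3, and 8.03 and 419.6 CPM in null 1 and null 3. Its part in the Ccne2 level was not tested.

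Ccne1, which encodes cyclin E1, had its highest levels in WT lines. It stood at 25.4 and 31.2 CPM in WT, at 16.6, 8.42 and 13.1 CPM in mutant 1, 2 and 3, and at 9.04 and 15.2 CPM in null 1 and null 3. Both WT lines lay above all 5 other lines, and mutant and null lines overlapped. The log2 fold change was -1.15 in mutant against WT (SE 0.366, edgeR adjusted p = 0.0953) and -1.22 in null against WT (SE 0.413, adjusted p = 0.188), so neither difference passed. The mutant and null lines differed by 0.07 (SE 0.372), and this sign turned without mutant 1 or without null 1. DESeq2 called Ccne1 lower in mutant against WT (adjusted p = 0.0322) but not in null against WT.

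Since Ccne1 and Ccne2 serve the same kinase, their balance was read within each library as a ratio of counts, a value that library scaling does not change. The Ccne2 to Ccne1 count ratio was 0.278 and 0.312 in WT 1 and WT 2. It was 0.855 and 0.791 in null 1 and null 3, and 1.80, 3.63 and 1.82 in mutant 1, 2 and 3. The 3 groups therefore lay in the order WT, null, mutant with no overlap between any 2 of them. Group means of the log2 ratio differed by 2.95 between mutant and WT, by 1.48 between null and WT and by 1.47 between mutant and null. Leaving out 1 line at a time kept these differences at 2.62 to 3.13, 1.40 to 1.56 and 1.14 to 1.65. These ratios are given as a description, and no test of them was made. Among single genes, 26.9% were higher and 25.7% lower without overlap in mutant against WT. How often ratios of other gene pairs separate the groups was not counted.

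Per kilobase of exon, which allows different genes to be compared, Ccne1 was the more abundant E-type cyclin in WT lines, at 14.2 CPM per kilobase against 2.63 for Ccne2. In mutant lines the order turned, with 6.35 for Ccne1 and 8.79 for Ccne2, and it turned in each of the 3 lines. In null lines Ccne1 was still ahead, at 6.07 against 3.09. The same orders were found per kilobase of coding sequence.

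**Figure D2:**
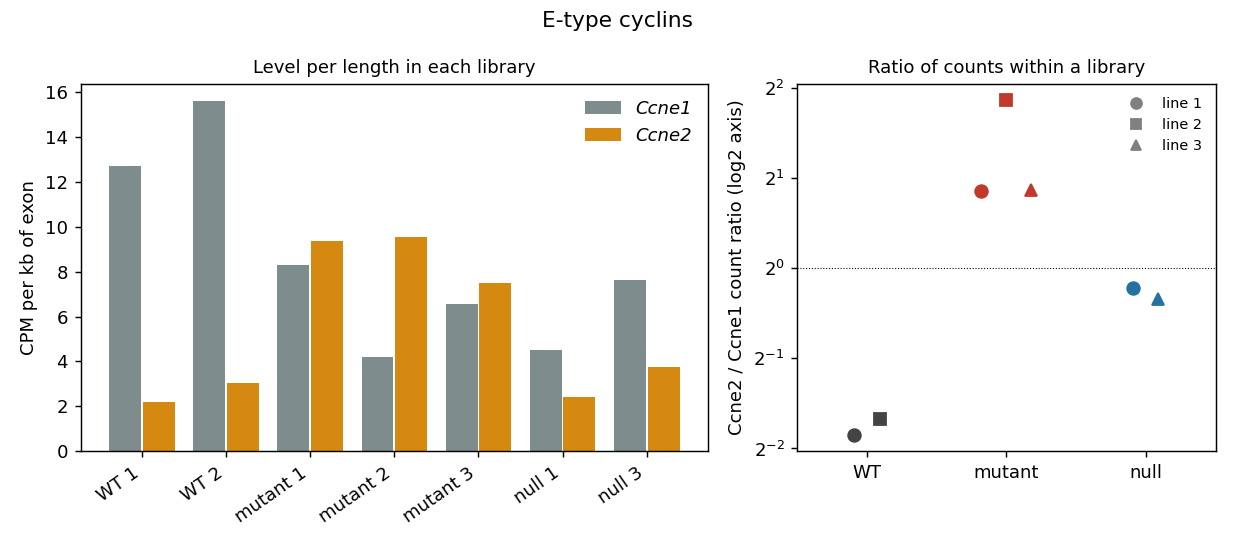
Left, CPM per kilobase of exon for Ccne1 (grey) and Ccne2 (orange) as bars for each library; right, the ratio of Ccne2 to Ccne1 counts in each library on a log2 axis, by group, with a dotted line at equal counts. Ratios are near 0.3 in WT, 0.855 and 0.791 in null and from 1.80 to 3.63 in mutant lines.

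Ccnd1, which encodes cyclin D1, was the most abundant of the 10 genes per kilobase of exon in every library but null 1, where Cdk4 and Ccnd2 were higher. Its lead over Ccnd2 depends on the length used. Per kilobase of coding sequence, means in WT, mutant and null lines were 1615, 1184 and 826 CPM for Ccnd1. Those of Ccnd2 were 1514, 985 and 893 CPM. In CPM, Ccnd1 stood at 1190.1 and 1678 in WT, at 1395, 860.1 and 899 in mutant 1, 2 and 3, and at 268 and 1199.8 in null 1 and null 3. Null 1 stood apart at less than any other library, and null 3 lay within the WT range. Differences from WT were -0.45 in mutant (SE 0.581) and -0.97 in null lines (SE 0.648), with edgeR adjusted p = 0.625 and 0.422. Without null 1 the null difference shrank to -0.26, and without null 3 it grew to -2.42. Mutant against null was 0.52 (SE 0.594, adjusted p = 0.72) and turned to -0.18 without null 1.

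Ccnd2, which encodes cyclin D2, was lower in all 5 lines with altered p53 than in both WT lines, though not by enough to pass edgeR. It stood at 1193 and 1442 CPM in WT, at 735, 964 and 873 CPM in mutant 1, 2 and 3, and at 611 and 943 CPM in null 1 and null 3. Its log2 fold change against WT was -0.62 in mutant (SE 0.243, edgeR adjusted p = 0.145) and -0.76 in null lines (SE 0.271, adjusted p = 0.202). DESeq2 called both lower (adjusted p = 0.0452 and 0.048). These 2 comparisons share the WT libraries, so they are not independent of each other.

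Ccnd3, which encodes cyclin D3, was the least abundant D-type cyclin per kilobase in every group. It stood at 51.5 and 57.7 CPM in WT, at 83.0, 57.0 and 70.2 CPM in mutant and at 48.6 and 75.5 CPM in null lines, and all 3 groups overlapped. Of all counts on D-type cyclins, Ccnd1 took 48.9 and 52.8% in WT 1 and WT 2. In mutant 1, 2 and 3 it took 63.0, 45.7 and 48.8%. The null lines were far apart, at 28.9% for null 1 and 54.1% for null 3. Ccnd2 took 65.9% of them in null 1, its highest share among the 7 libraries. The summed D-type cyclin level was 2434 and 3178 CPM in WT, 1843 to 2213 CPM in mutant lines, 2218 CPM in null 3 and 927 CPM in null 1.

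Cdk4 and Cdk6, the kinases that D-type cyclins activate, were the steadiest of the 10 genes. Cdk4 ran from 204 CPM in null 3 to 314 CPM in WT 2, a 1.54-fold span. Its WT values of 277 and 314 CPM lay above the mutant values of 246, 263 and 257 CPM and the null values of 255 and 204 CPM. The differences from WT were -0.21 in mutant (SE 0.159) and -0.36 in null lines (SE 0.175), with edgeR adjusted p = 0.398 and 0.29. Cdk6 ran from 23.9 CPM in WT 1 to 33.1 CPM in mutant 1, a 1.38-fold span, and its groups overlapped in all 3 comparisons. Its differences were 0.18 (SE 0.211), -0.01 (SE 0.230) and 0.18 (SE 0.211) for mutant against WT, null against WT and mutant against null. Per kilobase of exon Cdk4 was far above Cdk6, at 144 against 2.35 in WT, and per kilobase of coding sequence at 324 against 27.6. The size of that gap depends on the long noncoding part of Cdk6, but its direction was the same in every group by either length.

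The pocket proteins were lower on average in mutant and null lines than in WT, without a call in edgeR. Rb1, the retinoblastoma gene, stood at 41.2 and 46.4 CPM in WT, at 23.9, 31.9 and 28.9 CPM in mutant 1, 2 and 3, and at 30.4 and 18.1 CPM in null 1 and null 3. Both WT lines lay above the other 5. The log2 differences from WT were -0.63 in mutant (SE 0.265, edgeR adjusted p = 0.163) and -0.85 in null lines (SE 0.295, adjusted p = 0.194).

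Rbl1, which encodes p107 and is itself a known E2F target, differed widely between lines of the same group. It stood at 46.5 and 77.1 CPM in WT, at 41.8, 14.95 and 40.9 CPM in mutant 1, 2 and 3, and at 14.2 and 24.6 CPM in null 1 and null 3. Mutant 2 and null 1 were alike in their low level, and the remaining mutant lines lay just below WT 1. Its log2 fold change was -0.92 in mutant against WT (SE 0.491, edgeR adjusted p = 0.248) and -1.67 in null against WT (SE 0.560, adjusted p = 0.187). DESeq2 called the second (adjusted p = 0.033). Mutant against null was 0.75 (SE 0.510, adjusted p = 0.527). Rbl2, which encodes p130, the pocket protein of resting cells, stood at 38.8 and 52.7 CPM in WT, 39.1, 40.5 and 23.4 CPM in mutant and 39.3 and 35.8 CPM in null lines. Its groups overlapped in every comparison. The ratio of Rbl2 to Rbl1 counts was highest in null 1 and mutant 2, at 2.76 and 2.71, against 0.835 and 0.684 in WT 1 and WT 2.

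The promoter of Rbl1 is shown because it alone, of the 6 genes of this set with a promoter in the RefSeq table (GRCm38.p6), held an E2F motif. The 120 bases before the start site lie at chr2:157204535-157204654 on the minus strand, and capitals mark the motif.
Rbl1: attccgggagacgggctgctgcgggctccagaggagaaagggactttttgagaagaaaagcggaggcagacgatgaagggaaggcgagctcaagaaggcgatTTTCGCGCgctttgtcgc
The search covered the forms TTTCCCGC, TTTCGCGC, TTTGCCGC and TTTGGCGC on both strands in the 250 bases before the start. Of 32851 promoters of that length 1.86% held a match. The Ccne1, Ccnd3, Cdk4, Cdk6 and Rbl2 windows did not hold these letters. A match describes the sequence and was not set against binding data.

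**Figure D3:**
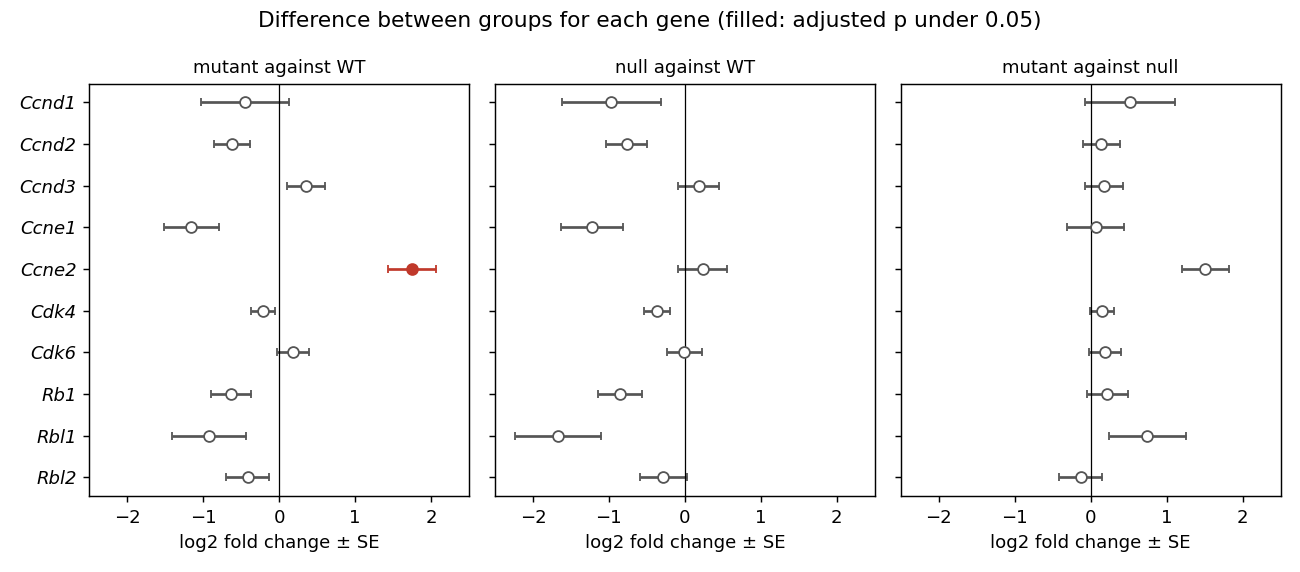
Log2 fold change ± SE of each gene in the 3 comparisons, from the edgeR fit of all 7 libraries; the filled point is the only gene with an adjusted p under 0.05, Ccne2 at 1.75 in mutant against WT. In both comparisons with WT most points lie left of 0, while in mutant against null 9 of 10 lie right of it. In mutant against null the signs of Ccnd1, Ccnd2, Ccnd3, Ccne1, Rb1 and Rbl2 turned with 1 line left out. The share of all genes on each side of 0 was not counted.

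As a set, 1 of the 10 genes was called higher and none lower in mutant against WT, where 7.42% of all genes were called by edgeR. The share of 1 in 10 is close to this background. At an unadjusted p under 0.05, 1 was higher and 3 lower, against 15.9% and 14.6% of all genes. The median log2 fold change of the 10 genes was -0.43, and that of all genes 0.08. In null against WT edgeR called none of the 10, and 0.138% of all genes (0.0726% higher, 0.0654% lower). At an unadjusted p under 0.05 none was higher and 4 were lower, against 11.2% and 9.01% of all genes. Their median was -0.56, and that of all genes 0.06. In mutant against null none was called, 1 was higher at an unadjusted p under 0.05 (6.35% of all genes), and the median was 0.18 against 0.02.

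DESeq2 called 3 of the 10 in mutant against WT, Ccne2 higher and Ccnd2 and Ccne1 lower, where it called 23.8% of all genes (12.8% higher, 11.1% lower). It called 2 in null against WT, Ccnd2 and Rbl1, both lower, where it called 11.8% of all genes (6.86% higher, 4.92% lower). Ccnd2, Ccne1, Cdk4, Rb1 and Rbl1 had both WT lines above every mutant and every null line. For each comparison taken alone, 25.7% of all genes were lower without overlap in mutant against WT and 27.1% in null against WT, where 29.1% were higher. The share of all genes with WT above both other groups was not counted. Ccne2 was the 1 gene higher without overlap in mutant against WT (26.9% of all genes) and in mutant against null (16% of all genes, with 15.1% lower).

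Other genes of the same pathway were read from 6 lists with 59 genes, of which 58 were tested. The lists were chosen with earlier results of these data known, and genes of a list may vary together. Shares of a list are therefore given as a description. In mutant against WT, edgeR called 6 of the 58 higher and 1 lower, against 3.3% and 4.13% of all genes. It called none in null against WT or in mutant against null, where it called 0.138% and 0% of all genes. At an unadjusted p under 0.05, 18 of the 58 were higher and 2 lower in mutant against WT, against 15.9% and 14.6% of all genes. In null against WT 5 were higher and 10 lower, against 11.2% and 9.01% of all genes. In mutant against null 21 were higher and 4 lower, against 6.35% and 7.63% of all genes. Among 10 E2F and DP transcription factors, E2f3, an activator of S-phase genes, rose in mutant against WT by 0.80 (SE 0.161, edgeR adjusted p = 0.0387). It stood at 31.5 and 37.2 CPM in WT and at 57.7 to 61.0 CPM in mutant lines. The list's median was 0.47 in mutant and 0.27 in null against WT. In null against WT the smallest p-values were those of Tfdp2, a dimer partner of E2F proteins, at 1.29 (adjusted p = 0.121), and E2f3 at 0.55 (adjusted p = 0.172). In mutant against null they were those of the repressors E2f8 and E2f7, at 1.39 and 1.52 (adjusted p = 0.306 and 0.329). Tfdp2 was also raised in mutant against WT, at 1.21 (edgeR adjusted p = 0.0525), without a call.

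Of 7 CDK inhibitors, edgeR called 1 lower and 2 higher in mutant against WT, against 4.13% and 3.3% of all genes. Cdkn1a was 36.9 CPM in mutant and 455 CPM in WT lines, a log2 fold change of -3.62 (edgeR adjusted p = 0.0199). Cdkn1b, which encodes p27, an inhibitor of cyclin E complexes, rose by 1.19 (adjusted p = 0.0321). Cdkn2c, which encodes the CDK4 and CDK6 inhibitor p18, rose by 1.80 (adjusted p = 0.0455), from 3.71 to 12.9 CPM. Cdkn1a was at -2.55 in null against WT (adjusted p = 0.0871) and Cdkn2a, the INK4a/ARF gene, at 1.95 (adjusted p = 0.134), and neither passed. Cdkn2a was raised about as much in mutant against WT, at 2.04 (edgeR adjusted p = 0.0525), and did not pass there either. In mutant against null, Cdkn2c was at 1.40 and Cdkn1a at -1.07 (adjusted p = 0.287 and 0.317). The list's median was 1.19 in mutant and 0.72 in null against WT.

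Among 8 tested genes of the CDK2 module and CDK activation, Skp2 rose in mutant against WT by 1.55 (SE 0.324, edgeR adjusted p = 0.0425). Skp2 is the substrate receptor of the ligase that degrades p27. All 8 were above 0 in mutant against WT (median 0.45) and in mutant against null (median 0.61). In mutant against null, 7 of the 8 did not overlap between groups, against 16% of all genes higher without overlap, though none was called. Cks1b, the cofactor of Skp2, and Cdk2, the partner of E-type cyclins, had the smallest p there, at 1.02 and 0.66 (adjusted p = 0.287 and 0.297). In null against WT the smallest were Cdk2 at -0.48 and Skp2 at 0.60 (adjusted p = 0.291 and 0.352). Of 7 DREAM and MuvB partners, the proteins that repress cell cycle genes together with p107 and p130 or activate them with Mybl2 and Foxm1, the chromatin protein gene Rbbp4 rose in mutant against WT by 1.65 (adjusted p = 0.0162). Rbbp4 was at 1.09 in null against WT and 0.56 in mutant against null (adjusted p = 0.0813 and 0.287). Lin52 was at 0.76 in null against WT and Foxm1 at 1.89 in mutant against null (adjusted p = 0.278 and 0.287). In mutant against WT Lin52 was at 1.26 (edgeR adjusted p = 0.0646). None of 8 genes for cyclin degradation was called. Their smallest p-values were for Cryab and Skp1a in mutant against WT (-1.68 and 0.46), Fbxo31 and Cryab in null against WT (0.53 and 1.02) and Cryab and Fbxo31 in mutant against null (-2.70 and -0.59).

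Of 18 E2F target genes, Slbp, the histone mRNA binding protein, rose in mutant against WT by 1.27 (SE 0.202, edgeR adjusted p = 0.0261), and 9 were above and 9 below 0. In null against WT 16 of 18 were below 0, with a median of -0.76 and none called. Rrm2 and Tk1, enzymes of nucleotide supply, had the smallest p there, at -2.54 and -2.51 (adjusted p = 0.0995 and 0.123). In mutant against null all 18 were above 0, with a median of 0.99 against 0.02 for all genes, and 17 did not overlap, against 16% of all genes higher without overlap. None passed, with Slbp at 0.95 and Mcm4, a subunit of the replicative helicase, at 1.26 (adjusted p = 0.258 and 0.27). Counts over this list are a description, since it was chosen with earlier results of these data known. Averaged over the list, log2 ratios to the WT mean came to -1.37 for null 1 and -0.50 for null 3. Mutant lines came to 0.08 to 0.38, and WT 1 and WT 2 to -0.32 and 0.32. Null 1, the line with the lowest Ccnd1 and Rbl1, thus also had the lowest E2F target level. Mutant 2 had a similar Rbl1 level, 14.95 CPM against 14.2 CPM in null 1, and its E2F target level was 0.12. Whether E2F target levels go with those of Ccnd1 and Rbl1 was not tested.

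**Figure D4:**
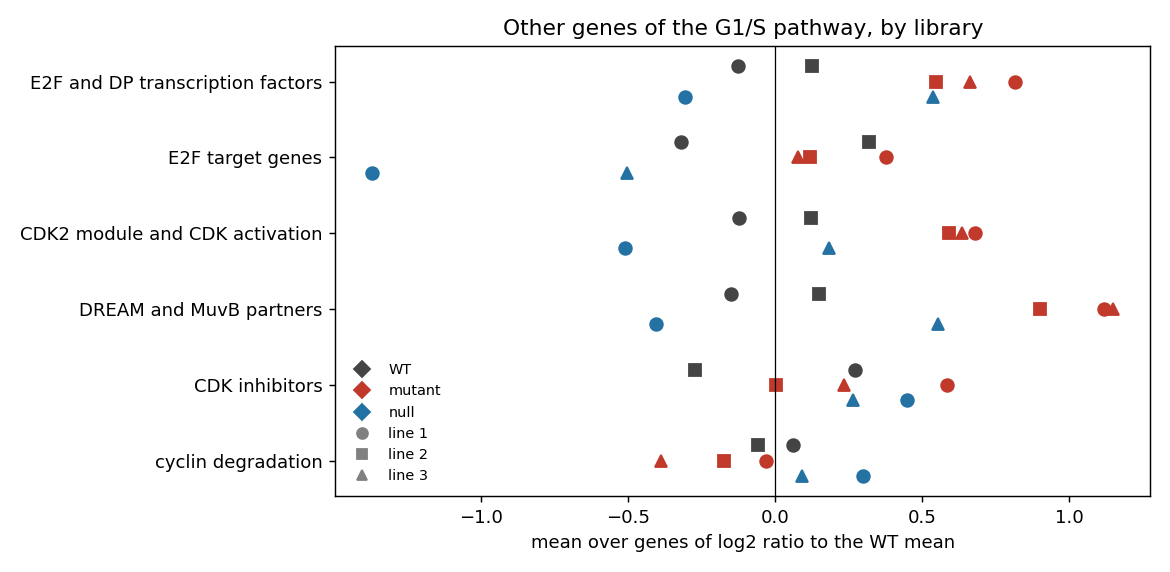
Mean log2 ratio to the WT mean over the tested genes of 6 pathway lists, for each library (color, group; symbol, line number). Null 1 lies lowest for E2F target genes at -1.37. The 3 mutant lines and null 3 lie right of both WT lines for E2F factors, the CDK2 module and DREAM partners.

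The genes most like 4 of the members were those with the smallest root mean square difference of centred log2 CPM over the 7 libraries, among 9964 candidates. For Ccne2 they were St3gal4 (0.24), Rpa2 (0.24) and Twist1 (0.26), against a median of 0.90 over all candidates. Rpa2 encodes a subunit of the single-strand DNA binding protein of replication. Its levels, as CPM, were 7.55 and 11.3 for WT 1 and WT 2, and 8.89 and 18.6 for null 1 and null 3. For mutant 1, 2 and 3 they were 32.4, 25.3 and 25.7. St3gal4, Rpa2 and Twist1 were picked because they resemble Ccne2, so their high level in mutant lines follows from the choice. For Ccnd1 they were Zfp704 (0.17), Dcaf8 (0.20) and Bora (0.21), with a median of 0.89. Bora encodes an activator of the mitotic kinase Aurora A. Since these genes were picked for their likeness to Ccnd1, their low level in null 1 follows from the choice. For Ccnd2 they were the actin crosslinker gene Flna (0.08), Atad2b (0.10) and Ap2a1 (0.10), with a median of 0.51. For Cdk6 they were the nuclear transport genes Cse1l (0.05) and Nup54 (0.05) and the glycosylation gene Alg12 (0.06), with a median of 0.38.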

How the data were processed

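The authors deposited raw counts per gene for 7 libraries of polyadenylated RNA, made with a stranded mRNA kit per the labels' protocols. STAR 2.5.1b and the build mm9 were used, per the submitters' processing notes. The sources used here do not give the counting tool, strand setting or annotation. Spike-in names (92, with 0 counts) were left out. Groups came from sample titles. Counts of lines of 1 group differed by a chi-square of at least 55.9 per degree of freedom, so no library was a copy. In R 4.3.3, edgeR 4.0.16 fitted all 7 libraries together (quasi-likelihood F test, TMM factors, default expression filter, Benjamini-Hochberg adjustment over 13768 genes, threshold 0.05). Standard errors came from the fold change and its F statistic. The fit was tested on simulated counts. Alternatives were RLE factors, no filter, DESeq2 1.42.0, the newer quasi-likelihood form, only the groups compared, a replicate block and leaving out each line. All members were named, with called genes of each pathway list (up to 4 a comparison, or else the 2 smallest p) and 3 most alike genes with a mean of at least 5 CPM. Members and lists were chosen with earlier results of these data known. Exon lengths came from GENCODE M21, whose build (GRCm38) differs from that of the counts.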

Additional observations from a re-analysis of the deposited data

How the results depend on the processing

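The call of Ccne2 in mutant against WT rested on few lines. With 1 line left out, 0 to 1 members were called in mutant against WT and 0 in the other comparisons. In mutant against WT, edgeR called 0 genes of any kind without WT 1 or WT 2, 37 without mutant 2 and 6 without mutant 3. DESeq2 called 3, 2 and 1 members in mutant against WT, null against WT and mutant against null. With a replicate block 0 members were called in mutant against WT, and Ccne2 was at 1.76 (edgeR adjusted p = 0.128), with 0 genes of any kind called. Deviations of same-numbered lines from their group means correlated at -0.02 and -0.02 for mutant and WT and at -0.41 and -0.02 for mutant and null. WT and null share 1 number, whose lines correlated at 0.14. In a group of 2 lines the deviations mirror each other, and the labels do not say what the numbers mark. These values therefore cannot show whether same-numbered lines are paired. The block turned the small null against WT differences of Ccnd3 and Rbl2 to -0.023 and 0.094, and using no filter turned that of Cdk6 to 0.0042.

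Other signs turned only for uncalled differences with 1 line left out. In null against WT the ranges were -0.17 to 0.17 for Cdk6, -0.17 to 0.47 for Ccnd3 and -0.12 to 0.52 for Ccne2. In mutant against null they were -0.18 to 1.98 for Ccnd1, -0.13 to 0.49 for Ccnd2, -0.10 to 0.53 for Ccnd3, -0.25 to 0.50 for Ccne1, -0.10 to 0.65 for Rb1 and -0.27 to 0.074 for Rbl2. Of 390 values of members under an alternative, 366 kept direction and side of the threshold. Of 18 differences in count ratios between members, 8 changed sign with 1 line left out, none of them for Ccne2 against Ccne1. RLE factors changed no call or sign of a member. With 2 or 3 lines a group, a difference that did not pass is not shown to be absent, and the effect of depth was not tested.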
